A study of Homo sapiens with 2 samples.

Results

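The snoRNA host genes of the SNHG family are long noncoding RNA (lncRNA) genes whose introns carry small nucleolar RNAs (snoRNAs). All genes with a symbol made of SNHG and a number in GENCODE version 44 were taken except SNHG14, and GAS5, ZFAS1 and DANCR were added, which gave 30 genes of the 60554 listed. Chromatin RNA was sequenced from SHSY-5Y cells, a human neuroblastoma line commonly written SH-SY5Y, with no genetic modification and no treatment named. There were 2 replicates of this 1 condition, and the sources used here do not say whether each was its own culture. RNA that stays with chromatin after fractionation of the cells is rich in transcripts still being made. With a single condition, the levels of the host genes were described and no gene was tested for a change.

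In a snoRNA host gene the exons are joined and the snoRNA is trimmed out of the removed intron after the lariat is opened. Box C/D snoRNAs guide the methylation of ribosomal RNA and box H/ACA snoRNAs guide its pseudouridylation, while scaRNAs act on spliceosomal RNAs in Cajal bodies. The spliced lncRNA often has no long reading frame and is degraded in the cytoplasm by nonsense-mediated decay. Many snoRNA hosts belong to the 5′TOP class, in which transcription starts at a C followed by a run of pyrimidines. GAS5 was first described as a transcript that accumulates in growth-arrested cells.

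GAS5 shows how densely a host can be filled. RefSeq places 10 box C/D snoRNAs and 1 H/ACA snoRNA in it, all on the minus strand of chromosome 1 and with 801 bases together. The 10 C/D snoRNAs were 60 to 81 bases long, and each held the core of the C box (TGATG) near its 5′ end and the D box (CTGA) near its 3′ end. SNORD44 lies at chr1:173865968-173866028, SNORD47 at chr1:173864369-173864445, SNORD76 at chr1:173866635-173866715 and SNORD81 at chr1:173864146-173864222 of hg38. They are printed from the genome at RefSeq positions to show these boxes, which are in capitals.
SNORD44: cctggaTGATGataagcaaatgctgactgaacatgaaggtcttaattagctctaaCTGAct
SNORD47: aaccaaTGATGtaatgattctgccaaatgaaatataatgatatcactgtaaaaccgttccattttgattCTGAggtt
SNORD76: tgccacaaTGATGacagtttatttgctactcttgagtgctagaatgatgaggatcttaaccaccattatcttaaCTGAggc
SNORD81: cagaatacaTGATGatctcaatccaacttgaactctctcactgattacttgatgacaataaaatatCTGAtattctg
The stretches between the boxes differ, and they hold the bases that pair with the target RNA.

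Other snoRNAs have rows of their own in the files, and those with the most counts inside the host genes are shown next. SNORA73B lies in SNHG3 at chr1:28508558-28508762 on the plus strand and its close copy SNORA73A in the same host at chr1:28507365-28507571. These H/ACA snoRNAs were identical at 193 of 207 aligned columns (93.2%). SCARNA13 lies in SNHG10 at chr14:95533355-95533629 on the minus strand. SNORD12C at chr20:49278945-49279023 and SNORD12B at chr20:49280313-49280415 lie in ZFAS1 on the plus strand. Capitals mark the ACA triplet near the 3′ end of SNORA73A, SNORA73B and SCARNA13 and the C and D boxes of SNORD12C and SNORD12B.
SNORA73A: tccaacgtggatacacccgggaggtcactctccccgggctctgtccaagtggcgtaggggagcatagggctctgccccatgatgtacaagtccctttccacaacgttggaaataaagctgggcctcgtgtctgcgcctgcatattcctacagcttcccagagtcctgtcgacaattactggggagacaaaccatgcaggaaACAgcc
SNORA73B: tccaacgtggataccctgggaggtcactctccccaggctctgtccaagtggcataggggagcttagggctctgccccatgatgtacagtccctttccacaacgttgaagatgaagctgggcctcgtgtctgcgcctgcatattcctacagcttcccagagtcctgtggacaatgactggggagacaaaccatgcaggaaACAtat
SCARNA13: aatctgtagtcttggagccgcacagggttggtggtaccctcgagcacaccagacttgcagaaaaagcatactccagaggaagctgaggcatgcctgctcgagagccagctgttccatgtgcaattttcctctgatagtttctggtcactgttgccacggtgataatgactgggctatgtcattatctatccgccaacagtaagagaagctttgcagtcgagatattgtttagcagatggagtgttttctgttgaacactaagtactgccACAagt
SNORD12C: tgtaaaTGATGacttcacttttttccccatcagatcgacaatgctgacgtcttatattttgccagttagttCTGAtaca
SNORD12B: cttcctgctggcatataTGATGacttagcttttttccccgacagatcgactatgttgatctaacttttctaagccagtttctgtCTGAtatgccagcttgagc

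Most of the host genes were measured on chromatin. A mean count of at least 10 on the sense strand was reached by 23 of the 30 genes (76.7%), against 12.2% of all 14078 lncRNA genes and 59.4% of all 19586 protein-coding genes. The median level of the 30 genes was 24.1 CPM (counts per 1e+06 counts in genes), while the median was 0 CPM over all lncRNA genes and 8.61 CPM over protein-coding genes. Counts are sums over many cells, so that fewer cells with an RNA and less of it per cell cannot be told apart. Per length, the median was 19.6 counts per kb of exon for the 30 genes and 7.28 for protein-coding genes. The 253 protein-coding genes with a snoRNA inside had a higher median than the SNHG hosts, with 59.6 CPM and 35.9 counts per kb, and 214 of them (84.6%) reached a mean count of 10. The lncRNA hosts were thus nearer in level to protein-coding genes than to other lncRNA genes, and together they took 0.296% of all counts in genes.

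A few genes carried most of this RNA. GAS5 alone had 35.5% of the counts of the 30 genes, and GAS5, SNHG1, SNHG3 and SNHG15 together had 71.0%. Levels between genes are compared below in counts per kb of exon, where exon means the union of all exons annotated for the gene.

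GAS5 (chr1:173858559-173868882) had 4200 counts in replicate 1 and 3755 in replicate 2, or 1054 ± 60.4 CPM (SD, n = 2) and 806 counts per kb of exon. It ranked 7 among lncRNA genes per kb of exon. SNHG1 (chr11:62851978-62855953), which holds 8 box C/D snoRNAs, followed with 2461 and 2025 counts and 564 per kb. Both replicates of GAS5 lay above both of SNHG1 on the per kb scale, and SNHG1 ranked 8. SNHG3 (chr1:28505980-28510892), host of both SNORA73 genes, had 1141 and 861 counts and 245 per kb. SNHG15 (chr7:44983019-44986961), which holds 1 H/ACA snoRNA, had 761 and 733 counts and 189 per kb. The replicates of these 4 genes did not overlap between neighbours in the order.

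The next genes in the order did overlap. SNHG25 (chr17:64145937-64146476), a short gene with 340 exon bases, had 56 and 22 counts, which is 165 counts per kb in replicate 1 and 64.7 in replicate 2. This range held both replicates of SNHG16, SNHG19 and at its lower end 1 replicate of SNHG29. SNHG16, which holds 3 box C/D snoRNAs, had 636 and 528 counts and 101 per kb. SNHG19, with 1 box C/D snoRNA and 614 exon bases, had 61 and 52 counts and 92.0 per kb. SNHG29 had 602 and 517 counts and 62.5 per kb. SNHG5, host of SNORD50A and SNORD50B, had 478 and 399 counts and 34.8 per kb, close to the 33.8 per kb of SNHG6 with its 90 and 81 counts. These values show how far the order depends on length, since SNHG19 ranked 99 among lncRNA genes per kb of exon and 408 by CPM.

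The remaining 13 detected genes ranged from 33.3 counts per kb for ZFAS1, with 294 and 259 counts, down to 5.09 for SNHG31, with 12 and 14. SNHG12, SNHG8, SNHG7, SNHG10, SNHG17, SNHG20, DANCR, SNHG22, SNHG4, SNHG11 and SNHG32 lay between them. DANCR, named for its part in keeping progenitor cells undifferentiated, had 187 and 132 counts and 15.7 per kb. SNHG31 and SNHG32, with mean counts of 13 and 11.5, were the genes nearest above the limit of 10.

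The other 7 genes were low. SNHG30 had 6 and 7 counts, SNHG28 had 7 and 5, and SNHG21 had 6 and 5. SNHG9 had 4 counts in replicate 1 and 0 in replicate 2, and SNHG18 had 2 and 1. SNHG26 and SNHG27 had no count in either library, which allows a level of up to 0.396 CPM over both libraries. At this depth these genes could not be placed in an order.

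What counts as exon bears on these levels. In GENCODE the union of exons covered a median of 45.2% of the length of the 30 genes, against 16.8% for protein-coding genes and 19.4% for all lncRNA genes. In 8 genes it covered over 90%, and in SNHG1, SNHG15, SNHG19, SNHG8 and SNHG9 it covered 100%. Where the counted annotation, which is not known, had the same exons, unspliced RNA of such genes falls in counted exons. That of a gene such as SNHG16, with 5.10% in exons, mostly does not. The part of this in the order of levels was not tested. Taking only the longest transcript of each gene as its length raised the median of the 30 genes from 19.6 to 32.8 counts per kb.

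Counts came almost wholly from the strand of the host genes. For the 23 genes with at least 20 counts over both strands, the median share on the sense strand was 99.7%, against 21.5% for all lncRNA genes with as many counts and 98.9% for protein-coding genes. The share was above 99% in 17 genes, and 11 genes, SNHG1 and SNHG3 among them, had no count on the opposite strand. Opposite counts exceeded sense counts in 2 of the 23 genes, against 57.9% of lncRNA genes with as many counts.

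SNHG7 was the first of these. It had 118 and 100 counts on its own strand and 265 and 136 on the opposite strand, so that the sense share was 30.8% (Wilson 95% interval 26.4 to 35.6) in replicate 1 and 42.4% (36.2 to 48.8) in replicate 2. The protein-coding gene DIPK1B overlaps 1482 exon bases of SNHG7 on the other strand (30.3% of its exons) and had 331 and 170 counts. SNHG31 had 26 and 18 opposite counts against 12 and 14 sense counts, and its sense interval in replicate 2 reached from 28.2 to 60.7%, so that the excess was within counting error there. ABCA12, which lies on the other strand of SNHG31 without a shared exon, had 301 and 273 counts. In both genes the higher strand was the same in both replicates.

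Smaller opposite counts were found in SNHG12, with 23 and 10, where TRNAU1AP overlaps 8 exon bases. Of the 30 genes, 16 share exon bases with a gene of the other strand, and 13 lose read pairs where strand is ignored, because pairs in exons of more than 1 gene are then given to none. SNHG7 lost 238 and 127 pairs, SNHG29 lost 202 and 162, and SNHG16 lost 192 and 142.

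Several host genes start near the start of a protein-coding gene that points the other way. There were 8 such pairs with annotated starts at most 1000 bases apart, and in 6 of them the lncRNA reached a mean count of 10. Pairs that overlap at their starts are included, since ZBTB37 starts inside GAS5 and ZNFX1 inside ZFAS1. The lncRNA was the higher gene per kb of exon in 4 of these 6, against 20.4% of all 417 such pairs of a detected lncRNA and a coding gene. GAS5 had 806 counts per kb and ZBTB37, a zinc finger gene, 40.4. SNHG1 had 564 and SLC3A2, a subunit of amino acid transporters, 48.7. Per kb, GAS5 was 19.8 and 20.2 times as high as its partner in replicates 1 and 2, and SNHG1 was 11.4 and 11.8 times as high. By CPM the distances were smaller, with 1054 for GAS5 and 208 for ZBTB37, and 592 for SNHG1 and 82.0 for SLC3A2. ZFAS1 had 33.3 per kb and ZNFX1 16.1, and SNHG19 had 92.0 and TRAF7 63.9. The order of the last pair turned by CPM, with 14.9 CPM for SNHG19 and 74.8 CPM for TRAF7, so that the lncRNA was higher in 3 of 6 pairs on that scale.

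The order was turned in the other pairs. SNHG22 had 14.7 counts per kb and ACAA2, an enzyme of fatty acid oxidation, had 29.7. SNHG31 had 5.09 and BARD1, the partner of BRCA1, had 39.0. The undetected SNHG9 and SNHG18 lay beside active coding genes, with 108 counts per kb for RPS2, a ribosomal protein gene, and 105 for SEMA5A, a semaphorin.

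The snoRNAs themselves had rows of their own for 29 of the 30 hosts, all but GAS5. Of these 60 snoRNA and scaRNA genes, 10 had a mean count of at least 10 (16.7%), against 20.4% of the 357 such genes inside protein-coding genes. A read pair that lies in exons of more than 1 gene on the counted strand is given to no gene, so the rows were split by the GENCODE exons around them. Among the 12 snoRNA genes that no other exon covers, 11 had at least 1 count and 4 had a mean of at least 10. Among the 44 that exons cover in full, 6 had at least 1 count and 5 had a mean of at least 10. Coding hosts had counts for 174 of 221 uncovered snoRNA genes (78.7%) and for 8 of 105 covered in full (7.62%). In other lncRNA hosts the shares ran the other way. Counts were found for 18 of 114 uncovered genes (15.8%) and for 27 of 56 covered in full (48.2%). Of all 181 rows in other lncRNA hosts, 81 lie in SNHG14 and 32 in MEG8, itself with 12 and 10 counts. These shares thus rest largely on few host genes. Of the 41 rows at 0 inside the SNHG hosts 38 were covered in full. The parts of exon cover and of the length of the RNA in the counts of the snoRNA rows were not tested.

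The snoRNA rows with the highest counts were few. SNORA73B, shown above, had 1640 and 2003 counts, and per length it stood 36.5 times as high as its host SNHG3. SCARNA13 had 956 and 520 counts, 134 times its host SNHG10 per length, although GENCODE places it within an exon of SNHG10. Its mean count was 738 on the sense strand and 9 in the unstranded column, under the limit of 10. The annotation that the authors counted on may differ from GENCODE version 44 there. The same holds for the other fully covered rows with counts, such as SNORA71C in SNHG17 with 20 and 21. SNORD12B had 92 and 68 counts and SNORD12C had 44 and 23, both in ZFAS1. SNORA71B in SNHG17 had 29 and 31, and SNORA74D in SNHG4 had 27 and 21. In GENCODE SNORA73B, SCARNA13 and SNORA71B are 204, 275 and 272 bases long, while RefSeq gives SNORA71B only 136 bases. SNORA74D has 141 bases, SNORD12B 91 and SNORD12C 89. SNORA73A and SNORD12, which exons of their hosts cover, had no count.

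The leading pair of rows moved in opposite directions between the replicates. The CPM of SNORA73B in replicate 2 was 1.48 times that in replicate 1 (95% interval 1.39 to 1.58), and that of SCARNA13 was 0.66 times (0.59 to 0.73). Their hosts moved less, with a ratio of 0.92 for SNHG3 (0.84 to 1.00) and 1.19 for SNHG10 (0.90 to 1.57).

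In GAS5 the snoRNAs and the host could not be told apart. RefSeq places 64 snoRNAs in 28 of the host genes, and 14 of them have no row in the files. All 14 lie wholly in exons of their host, 11 in GAS5, 2 in SNHG1 (SNORD29 and SNORD31) and 1 in SNHG5 (SNORD50A). Reads from the 10 C/D snoRNAs of GAS5, of which 4 are printed above, thus add to the 4200 and 3755 counts of GAS5 where the counted annotation had these exons, and their part in its level was not tested.

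The starts of the host genes were read for the 5′TOP tract. A C at the RefSeq start with at least 4 pyrimidines after it was present in 7 of the 26 host genes with a promoter sequence (26.9%), against 4.07% of all 35116 promoters on the gene strand. Protein-coding snoRNA hosts held it in 41 of 289 promoters (14.2%). The 7 genes are SNHG19, SNHG5, ZFAS1, SNHG12, SNHG4, SNHG32 and SNHG18. Windows of 25 bases before and 35 from the start (RefSeq, hg38) are printed with the tract in capitals for these genes, on the minus strand for SNHG19 (chr16:2155324-2155383), SNHG5 (chr6:85678699-85678758) and SNHG12 (chr1:28581839-28581898) and on the plus strand for ZFAS1 (chr20:49278617-49278676), SNHG4 (chr5:139274076-139274135), SNHG32 (chr6:31834891-31834950) and SNHG18 (chr5:9546175-9546234). GAS5 (chr1:173869011-173869070) and SNHG1 (chr11:62855851-62855910), both on the minus strand, follow as the highest genes without a tract at this base.
SNHG19: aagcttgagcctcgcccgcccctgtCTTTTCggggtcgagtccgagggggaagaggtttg
SNHG5: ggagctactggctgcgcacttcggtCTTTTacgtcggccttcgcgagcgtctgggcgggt
ZFAS1: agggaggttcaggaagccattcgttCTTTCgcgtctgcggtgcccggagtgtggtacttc
SNHG12: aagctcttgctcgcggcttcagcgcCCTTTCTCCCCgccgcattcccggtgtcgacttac
SNHG4: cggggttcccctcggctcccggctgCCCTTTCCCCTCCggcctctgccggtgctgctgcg
SNHG32: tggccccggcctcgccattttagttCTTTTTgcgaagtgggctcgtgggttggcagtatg
SNHG18: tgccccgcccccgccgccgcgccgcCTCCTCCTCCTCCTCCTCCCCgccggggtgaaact
GAS5: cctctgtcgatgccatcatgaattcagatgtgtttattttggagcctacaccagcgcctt
SNHG1: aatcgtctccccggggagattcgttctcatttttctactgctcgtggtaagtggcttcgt
In SNHG19, SNHG5, ZFAS1 and SNHG32 the tract follows a T and opens with CTTT, while in SNHG18 it is a long repeat of CTC.

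Levels of genes with and without the tract overlapped widely. The 7 genes with it had a median of 32.1 counts per kb of exon and ranged from 0.715 to 92.0, and the 19 genes without it had a median of 15.9 and ranged from 0 to 806. Annotated starts are not measured starts, and RefSeq and GENCODE differ in the start of GAS5 by 163 bases and in that of SNHG12 by 1259. Within 10 bases of the RefSeq start a tract was found in 16 of the 26 genes (61.5%), against 33.5% of all promoters, and in 9 (34.6%), against 24.9%, where no pyrimidine was allowed before its C.

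The replicates were close for most host genes. Of the 23 detected genes, 4 (17.4%) had a 95% interval of the ratio of CPM between replicates that left out 1, against 18.0% of all 14978 genes that reached this limit. The interval is exact (Clopper-Pearson) and covers counting error only. GAS5 was 1.08 times as high in replicate 2 (1.04 to 1.13), SNHG15 1.17 times (1.05 to 1.29) and SNHG17 1.37 times (1.14 to 1.66). SNHG25 was lower in replicate 2, at 0.48 times (0.28 to 0.79). The narrow interval of GAS5 goes with its high counts. The median absolute log2 ratio was 0.13 over the 23 genes and 0.20 over all genes past the same limit.

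SNHG17 holds several H/ACA snoRNAs of the SNORA71 family, of which SNORA71E lies in SNHG11. In SNHG17, SNORA71B, SNORA71C, SNORA71A and SNORA71D had ratios of 1.30, 1.27, 1.37 and 1.30, and the interval of each held 1. They lie in the same direction as their host, at 14 to 31 counts per library. This was also the direction of 16 of the 23 detected host genes. Whether these snoRNAs and their host move together was not tested.

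The machinery that makes and handles these RNAs was described from lists, beside the 59.4% of all protein-coding genes that reached a mean count of 10. Of the box C/D ribonucleoprotein and its assembly factors, 9 of 11 genes reached this limit, with 423 counts per kb of exon for NOP58 and 198 for NOP56, core proteins of the particle. FBL, the methyltransferase of the same particle, had 13 and 5 counts and ZNHIT3, an assembly factor, 2 and 2. All 6 genes of the H/ACA particle and its assembly reached it, with 112 counts per kb for NHP2, 44.1 for SHQ1 and 18.1 for GAR1. All 6 genes for intron debranching and end trimming did, with 514 counts per kb for the exonuclease XRN2, 106 for DIS3 and 16.3 for DBR1, which opens the lariat.

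All 8 genes of nonsense-mediated decay reached the limit that 59.4% of protein-coding genes reach, with 217 counts per kb for SMG5 and 29.4 for SMG6. All 6 genes of the list made for 5′TOP RNA binding did, with 268 counts per kb for TIA1, 99.5 for TIAL1 and 39.4 for LARP4. Whether the protein of each listed gene binds the 5′TOP tract itself was not checked. These levels are of chromatin RNA and not of protein. The identity of the cells was read from marker genes, where all 5 genes of sympathetic neuroblasts had 324 to 831 CPM, and the 3 leukocyte, 2 endothelial and 2 Schwann cell genes had no count in either library.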

How the data were processed

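The 2 libraries hold chromatin RNA of SH-SY5Y cells under a single condition. Their counts differed beyond sampling noise (chi-square per degree of freedom 2.92), so both were kept as replicates. The authors extracted molecular identifiers with UMI-tools, removed spike-in and rRNA reads with Bowtie, mapped with STAR, removed duplicates and mapped again on hg38. The sources used here give no versions, STAR options or gene annotation. The deposited values are raw counts of read pairs per gene, unstranded (column 2) and by strand (columns 3 and 4). Column 4, with the higher total, was taken as sense and gave 4155210 and 3425309 counts in genes, against 540916 and 436277 in column 3. Rows that name no gene were left out, with 17822011 and 15790416 pairs in no exon, 469308 and 350420 in more than 1 gene and 1125944 and 1115702 at several places.

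Names, classes and exons came from GENCODE version 44, which held 56558 of the 60554 identifiers. CPM, counts per kb of the union of exons, sense shares (Wilson interval) and ratios of CPM (exact interval) were computed with scipy 1.17.1, pandas 2.3.3 and numpy 2.4.6 under Python 3.11.15, with figures by matplotlib 3.10.9, and the ratio interval was tested on simulated data. A gene at 0 is bounded at 3 counts. Intervals and bounds reflect only the error of counting. Sequences came from hg38 and RefSeq. RefSeq promoters, searched on the gene strand, were found for 26 of the 30 genes. Named were all 30 genes, coding partners and overlapping genes, the 6 highest snoRNA rows and, of each list, the 2 highest and the lowest genes per kb of exon, and some genes that this takes are not reported here. SNORA71A, SNORA71C, SNORA71D, SNORA71E, SNORA73A, SNORD12 and FBL were added after their values were seen. The genes and lists were chosen with earlier results of these data known. Alternatives were the other columns, each replicate alone, other count limits, gene sets and lengths.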

Additional observations from a re-analysis of the deposited data

How the results depend on the processing

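Of 46 alternatives over 8 results, 27 stayed within the limits set for a change. The number of detected host genes, 23, became 4 on the opposite strand column and 14 at a mean count of at least 100. Their median of 24.1 CPM became 17.5 unstranded, 0 on the opposite strand, 36.4 over detected genes (mean count 10 or more), 16.2 with SNHG symbols only, 25.6 with SNHG14 added and 22.7 over genes with an annotated snoRNA. The median of 19.6 counts per kb became 17.5 unstranded, 0 on the opposite strand, 32.1 over detected genes and 32.8 by the longest transcript. The median sense share of 99.7% was 100% without either replicate, 99.9% with at least 1 count and 100% without genes that share exon bases with the other strand. The 10 detected hosted snoRNA genes became 0 on the opposite strand and 4 without those that overlap an exon. The 7 genes with a tract became 16 within 10 bases of the start and 9 where, in an alternative chosen after seeing the data, no pyrimidine stood before it.

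No paired analysis was possible because there is a single group of samples. Genes under 10 counts, such as SNHG9, are limited by depth.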

Other observations

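Protein-coding snoRNA hosts were led per kb of exon by GNL3, a nucleolar GTP-binding protein, with 645 counts per kb. RBMX had 539, EIF4A2, an RNA helicase of translation initiation, had 518, EIF4G2 had 493 and the chaperone gene HSPA8 had 463. All lay below the 806 of GAS5, and GNL3 alone of these lay above the 564 of SNHG1. The highest snoRNA rows in coding hosts also differed between the replicates, with 1074 and 1755 counts for SNORD17 in SNX5 and 1554 and 843 for SCARNA7 in KPNA4.

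SNHG14, left out of the host genes by the rule, had 1474 and 1253 counts and 360 CPM. Spread over 122609 exon bases this came to 11.1 counts per kb, below the median of the SNHG hosts. EPB41L4A-AS1, another lncRNA with a snoRNA inside, had 63.8 counts per kb. Of the 37 other lncRNA genes with a snoRNA, 9 had a mean count of at least 10 (24.3%), against 12.2% of all lncRNA genes.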
